A study of Homo sapiens with 13 samples.

Results

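The genes described here encode core proteins of the spliceosomal small nuclear ribonucleoproteins (snRNPs). They were chosen by name, as 44 of the 20033 protein-coding genes that GENCODE version 44 places on the chromosomes of hg38. The choice by name uses no measured value, but the set was proposed with earlier results of these data known. Chromatin of MOLM-13 cells, an established human acute myeloid leukemia line, was profiled in 13 libraries, and the data used are 2 deposited peak lists, 1 for the splicing regulator PTBP1 (9370 peaks) and 1 for the transcription factor RUNX1 (7688 peaks). Each target had 2 biological replicates in CUT&Tag and 2 in CUT&RUN, the H3K27me3 mark had 2 and IgG had 2 in CUT&RUN, and IgG had 1 in CUT&Tag. The labels give no treatment or genetic change for these cells, and all libraries come from this 1 cell line.

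The lists name a target but neither an assay nor a replicate, and are treated here as CUT&Tag because the methods describe peak calling for that assay. Whether replicates were pooled before peak calling is not given in the sources used here, and single libraries, IgG included, were not analysed here. Without a value per replicate there is no replicate spread and no test below. Each count of members is set beside the same share over all protein-coding genes, which is a description only. That background was not matched for expression, and the part of expression in the counts was not tested. For a single peak, the depth is the number of fragments at its summit, with an exact Poisson 95% interval that covers counting error only.

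An snRNP is a short nuclear RNA packed with proteins. U1 recognizes the 5′ splice site, U2 the branch point, and the U4/U6.U5 tri-snRNP then joins to form the machine that removes introns. U1, U2, U4 and U5 each carry a ring of Sm proteins, while U6 carries a related ring of LSm proteins. The minor U11/U12 snRNP serves a rare class of introns. PTBP1 is best known as an RNA-binding protein of pyrimidine-rich tracts, RUNX1 as a DNA-binding regulator of blood cell genes. In CUT&Tag, an antibody tethers a transposase that cuts and tags the DNA near its target.

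PTBP1 peaks were found at the start sites of many but not most snRNP protein genes, led by U2AF2 and SF3A2, and RUNX1 peaks at somewhat fewer, of which 12 were shared. The transcription start site (TSS) is the 5′ end of the annotated gene, and peaks reaching to within 1 kb of it were counted. By this measure 18 of 44 members (40.9%) carried PTBP1 at the TSS, against 26.4% of all protein-coding genes. A RUNX1 peak lay at the TSS of 15 members (34.1%), against 21.3% of all genes. Both targets had a peak at 12 members (27.3%), against 17.3% of all genes. PTBP1 without RUNX1 was found at 6 members (13.6%, background 9.05%), and RUNX1 without PTBP1 at 3 (6.82%, background 3.98%). The remaining 23 members (52.3%) had neither, against 69.7% of all genes. A gene without a peak may still have signal under the calling threshold, which such lists do not show.

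Peaks inside these genes but away from the TSS were fewer. Elsewhere in the gene body, 4 members (9.09%) held 7 PTBP1 peaks between them, against a background of 12.4% of genes, and 1 member (2.27%) held a RUNX1 peak, against 11.5%. The members are short genes, with a median length of 17.6 kb against 27.5 kb over all protein-coding genes, and the part of length in these counts was not tested. Counting both places, 22 members had at least 1 peak and 22 had none.

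**Figure D1:**
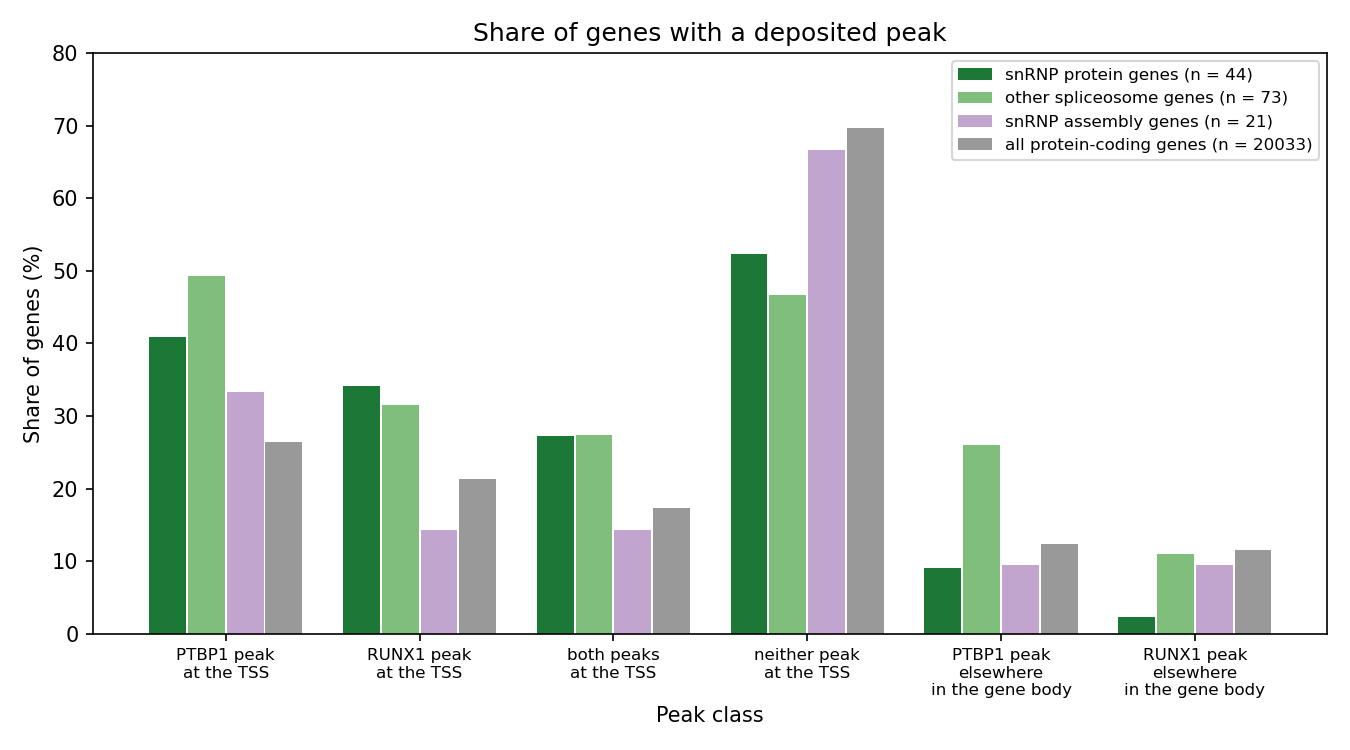
Share of genes (%, vertical axis) with a peak of each class (horizontal axis) among the 44 snRNP protein genes, 73 other spliceosome genes, 21 snRNP assembly genes and all 20033 protein-coding genes. PTBP1 at the TSS reached 40.9% of the snRNP protein genes and 26.4% of all genes, and peaks elsewhere in the gene body reached 9.09% and 12.4%.

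The wider pathway was counted in the same way. The 73 other spliceosome genes encode helicases, Prp19-related and exon junction proteins, and further proteins of the snRNPs, the minor one included. The role groups described below hold members only, so they are not complete lists of the proteins of each snRNP. Of the 73, 36 (49.3%) had a PTBP1 peak at the TSS, 23 (31.5%) a RUNX1 peak, 20 (27.4%) both and 34 (46.6%) neither. Elsewhere in the gene body, 19 of the 73 (26.0%) held a PTBP1 peak and 8 a RUNX1 peak. The list of 21 snRNP assembly genes mixes factors of Sm ring assembly, RNA transport and cap modification with some Sm and LSm protein genes that are not members. Of these 21, 7 (33.3%) had a PTBP1 peak at the TSS, 3 (14.3%) a RUNX1 peak and 14 (66.7%) neither. The difference between the snRNP protein genes and these lists was not tested.

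The sequence just upstream of the TSS is shown for the member with the strongest PTBP1 peak, U2AF2, for the member with the second strongest RUNX1 peak, SNRPA, and for the first 3 other members, in alphabetical order, whose window holds a RUNX motif, so that the letters can be read beside the peaks. Each runs 5′ to 3′ in the direction of the gene and ends at the base before the TSS, read from hg38. Capitals mark matches, on either strand, to RUNX (TGTGGT or TGCGGT), ETS (CCGGAA), NRF1 (GCATGCGC), YY1 (ATGGCGG), SP/KLF (GGGCGG) and CCAAT. The windows are chr19:55653996-55654145 (plus strand) for U2AF2, chr19:40750554-40750636 (plus) for SNRPA, chr10:13586789-13586938 (plus) for PRPF18, chr17:1684868-1685017 (minus) for PRPF8 and chr1:37990076-37990225 (minus) for SF3A3.
U2AF2: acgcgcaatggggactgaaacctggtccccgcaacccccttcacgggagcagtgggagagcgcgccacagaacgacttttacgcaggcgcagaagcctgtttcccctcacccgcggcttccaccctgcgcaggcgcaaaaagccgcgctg
SNRPA: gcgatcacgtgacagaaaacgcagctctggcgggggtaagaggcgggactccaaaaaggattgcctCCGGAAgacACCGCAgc
PRPF18: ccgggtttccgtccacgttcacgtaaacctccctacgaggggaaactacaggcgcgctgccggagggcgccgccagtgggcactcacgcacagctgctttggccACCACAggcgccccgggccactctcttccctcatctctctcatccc
PRPF8: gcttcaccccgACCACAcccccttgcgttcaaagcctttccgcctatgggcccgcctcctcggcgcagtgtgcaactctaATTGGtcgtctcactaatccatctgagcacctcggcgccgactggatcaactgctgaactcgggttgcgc
SF3A3: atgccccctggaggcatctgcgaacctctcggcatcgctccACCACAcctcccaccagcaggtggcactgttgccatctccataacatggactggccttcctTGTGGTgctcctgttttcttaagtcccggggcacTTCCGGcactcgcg

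In these windows motif letters stood both with and without peaks. U2AF2, with the strongest PTBP1 peak of the set, held none of the listed motifs in this window, although its promoter from 250 bases before to 50 after the TSS held RUNX letters. PRPF18 and SF3A3 held RUNX letters and had no peak of either target. SF3A2 and SNRPD2, also among the strongest, are not shown because their windows lie largely in a UTR of the neighbouring genes PLEKHJ1 and QPCTL.

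All 3 genes of the U1 snRNP carried PTBP1 at the TSS, and 2 of them also RUNX1. SNRPA encodes the U1-A protein, which binds a stem-loop of U1 RNA. Its PTBP1 peak, chr19:40750168-40751321, had a fold enrichment of 44.2 with 75 fragments at the summit (interval 59.0 to 94.0). Its RUNX1 peak, chr19:40750252-40751818, had a fold enrichment of 34.6 with 45 fragments (32.8 to 60.2). Both summits lay just downstream of the TSS, at 111 and 230 bases, and 119 bases apart. From the start of the canonical transcript they lay upstream, at -455 and -336. SNRPC, which encodes the U1-C protein that helps stabilize the pairing with the 5′ splice site, had weaker peaks of both targets, with a fold enrichment of 14.0 for PTBP1 and 9.02 for RUNX1 and summits at -406 and -267 from the TSS.

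SNRNP70, which encodes the U1-70K protein, had a PTBP1 peak only, chr19:49085171-49085573. It held 91 fragments (73.3 to 111.7), as many as the far stronger peak of SNRPD2, yet its fold enrichment was 13.3. The local background there was 8.24 times the usual value of the PTBP1 list. The nearest RUNX1 peak was 33396 bases from the TSS.

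Of the 11 members placed in the U2 snRNP group, 5 had a PTBP1 peak at the TSS, 3 of them with RUNX1, and 6 had neither. SF3A2 encodes a subunit of SF3a, a complex that helps tether U2 near the branch point. It had the second strongest PTBP1 peak of the set, chr19:2235379-2237380, with a fold enrichment of 76.7 and 131 fragments (109.5 to 155), and 98.4% of the PTBP1 list was weaker. Its RUNX1 peak, chr19:2235881-2236861, had a fold enrichment of 26.3 and 34 fragments (23.5 to 47.5). The summits lay at -296 and -371 from the TSS.

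SF3B6, whose product p14 contacts the branch point adenosine, had a fold enrichment of 29.6 for PTBP1 and 21.8 for RUNX1, with summits 64 bases apart. SNRPA1, which encodes the U2-A′ protein, had the weakest pair of peaks: 8.72 for PTBP1, with 14 fragments (7.65 to 23.5), and 8.27 for RUNX1, with 10 fragments (4.80 to 18.4). It was the only one of the 12 members with both targets whose peaks did not overlap, with summits 568 bases apart on opposite sides of the TSS.

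SF3B4 and SF3B5, both subunits of SF3b, had PTBP1 only. Each peak had a fold enrichment of 9.88 with 16 fragments (9.15 to 26.0), at chr1:149927937-149928414 and chr6:144095126-144095798. The SF3B4 peak lay wholly upstream, with its summit at -480, while the SF3B5 peak covered the TSS with its summit at 198 in exon 1. The nearest RUNX1 peaks were 39299 and 31011 bases from the 2 start sites.

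SF3B2, another SF3b subunit, shows how the choice of start site matters. It counted as having neither target at the TSS, but both targets had a peak in its gene body. The PTBP1 peak, chr11:66051837-66052752, had a fold enrichment of 21.5 with 36 fragments (25.2 to 49.8). The RUNX1 peak, chr11:66051899-66052627, had a fold enrichment of 14.3 with 18 fragments (10.7 to 28.4). The summits lay 1480 and 1610 bases from the 5′ end of the gene, but the canonical transcript starts 1635 bases downstream of that end, so they fell at -155 and -25 from the canonical start. With that start the gene counted as having both.

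The other 5 members of the U2 group had no peak in either place. These were SF3A1 and SF3A3 (SF3a subunits), SF3B1 and SF3B3 (SF3b subunits, of which SF3B1 is a recurrently mutated gene in myeloid neoplasms) and SNRPB2 (the U2-B″ protein). From the SF3B1 TSS the nearest PTBP1 peak was 18 kb and the nearest RUNX1 peak 18.2 kb away. The same distances were 22.5 and 22.4 kb for SF3A3, 66.9 and 77.3 kb for SF3A1, and 95.2 and 95 kb for SF3B3. SNRPB2 was far from both lists, at 952 and 1239 kb.

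The strongest PTBP1 peak of all 44 members lay at U2AF2, the gene of the large U2AF subunit that binds the polypyrimidine tract before the 3′ splice site. The peak, chr19:55653473-55655660, had a fold enrichment of 95.9 with 164 fragments (139.9 to 191), and ranked 93 of 9370 in its list. The RUNX1 peak at the same start, chr19:55653792-55655105, was moderate, with a fold enrichment of 18.0 and 23 fragments (14.6 to 34.5), although the summits were only 11 bases apart. The 2 summits lay at 159 and 170 from the TSS, and at -730 and -719 from the canonical start. The PTBP1 to RUNX1 ratio of fold enrichments, 5.32, was the highest among the 12 members with both.

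U2AF2 also held 3 weaker PTBP1 peaks in its body and no RUNX1 peak there. Their summits lay in intron 3 (fold enrichment 9.88, 16 fragments), in intron 11 (7.56, 12 fragments) and in the 3′ UTR in exon 12 (9.88, 16 fragments) of the canonical transcript. The last of these, chr19:55674312-55674650, also came within 1 kb of the start of the next gene, EPN1.

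The partners of U2AF2 had no peak. U2AF1 encodes the small U2AF subunit, which reads the AG at the 3′ splice site, and ZRSR2 its counterpart for minor introns. Both are recurrently mutated in myeloid neoplasms. The nearest peaks to ZRSR2 were 64.6 kb (PTBP1) and 64.1 kb (RUNX1) away. Those nearest to U2AF1 were 132 kb away in both lists, but peaks could be missed there. The 2001 bases around its TSS match chr21:6498248-6500248 at 1996 positions (99.8% identity), a region that GENCODE annotates as an artifactual duplication of U2AF1 in the assembly, and the authors kept only alignments of high mapping quality. The nearest peaks to that copy were 126366 bases (PTBP1) and 126610 bases (RUNX1) from its middle. The part of the copy in the missing peak was not tested. The windows of LSM2, PRPF31 and PRPF8 have such matches on alternate contigs only, and these genes had peaks.

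**Figure D2:**
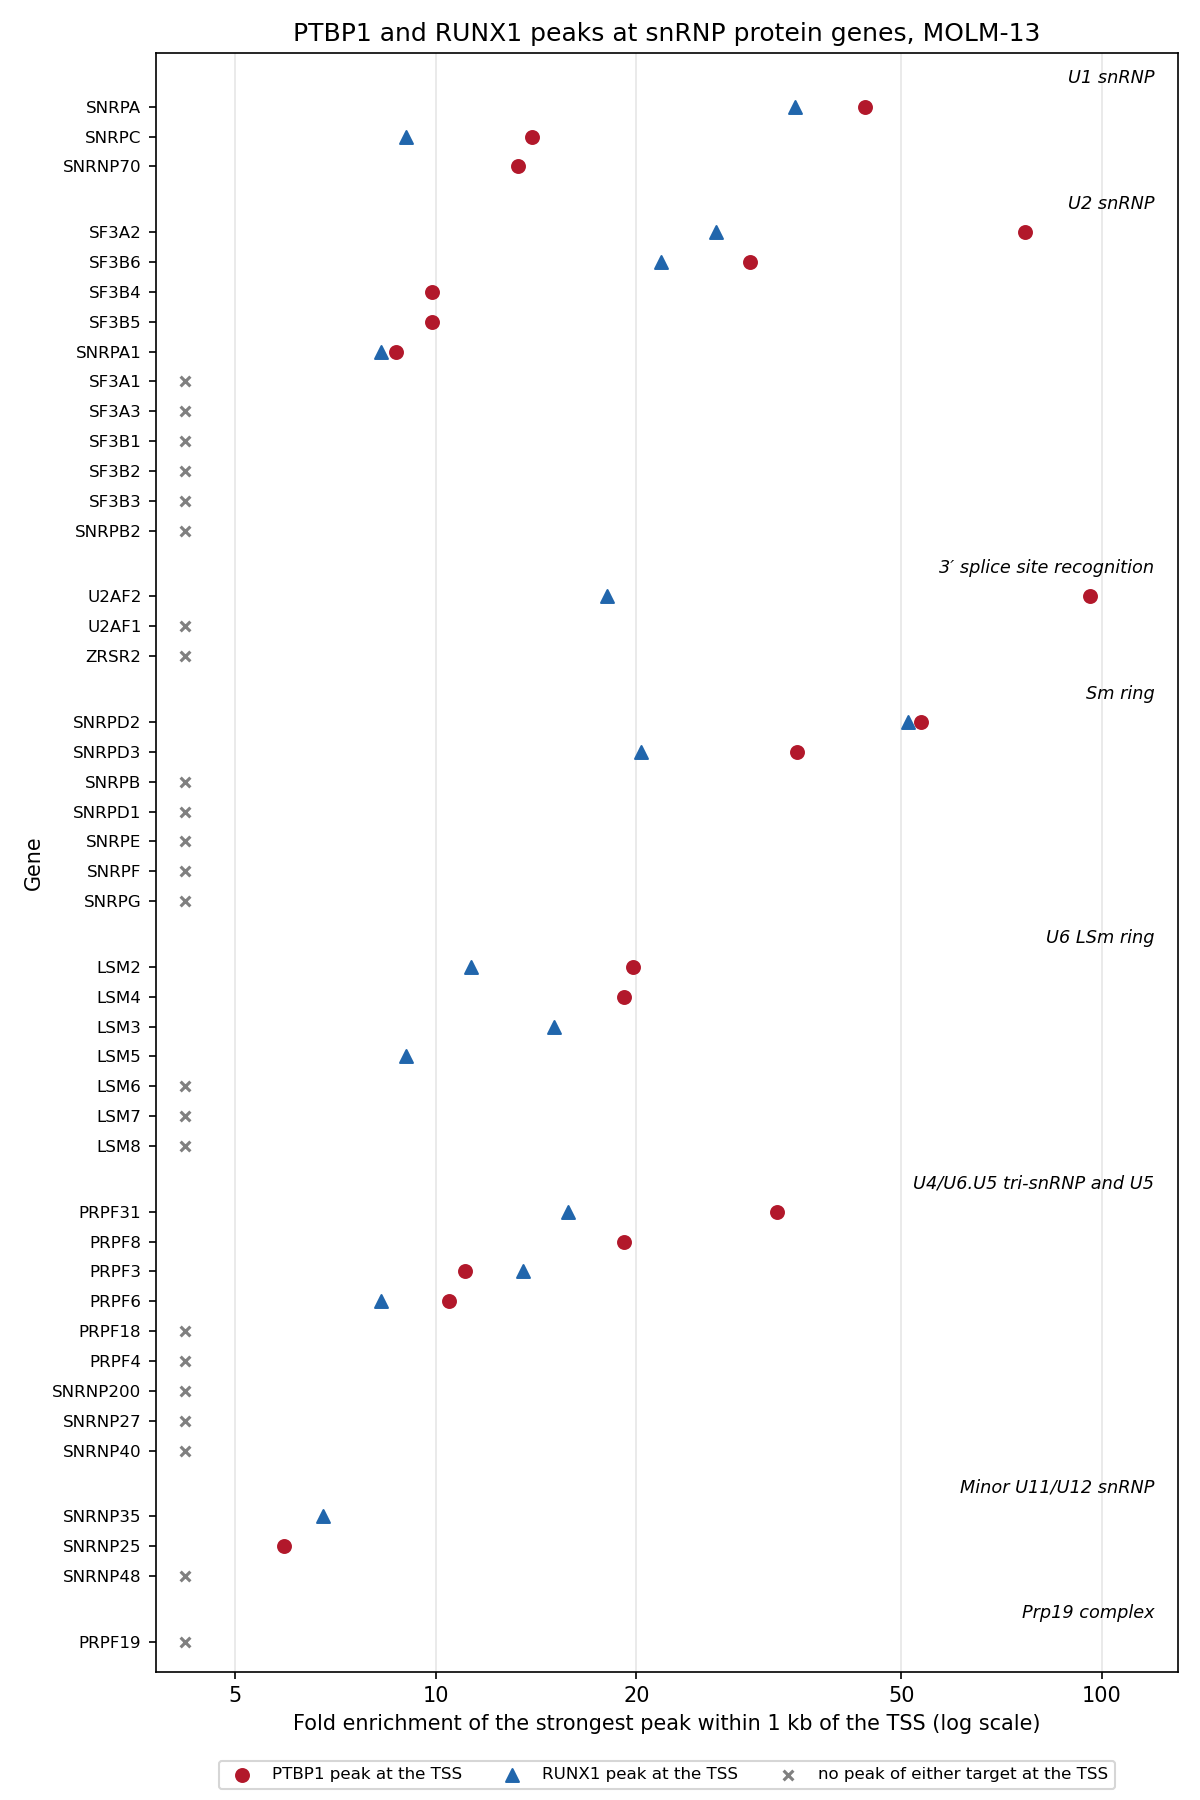
Fold enrichment (log scale, horizontal axis) of the strongest PTBP1 peak (circles) and RUNX1 peak (triangles) within 1 kb of the TSS for each of the 44 genes, grouped by role (vertical axis), with crosses for genes with no peak of either target at the TSS, drawn at an arbitrary position. U2AF2 (95.9) and SF3A2 (76.7) had the highest PTBP1 values and SNRPD2 (51.1) the highest RUNX1 value.

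Of the 7 Sm ring genes, 2 had peaks of both targets and 5 had none. SNRPD2 encodes SmD2. Its PTBP1 peak, chr19:45691726-45693461, had a fold enrichment of 53.5 with 91 fragments (73.3 to 111.7). Its RUNX1 peak, chr19:45691724-45693469, was the strongest RUNX1 peak of the set, with a fold enrichment of 51.1 and 67 fragments (51.9 to 85.1), ranked 388 of 7688. The peaks had almost the same extent and near-equal fold enrichment, with a ratio of 1.05. Their summits lay at 105 and 14 from the TSS, and at -511 and -602 from the canonical start. SNRPD3, the gene of SmD3, had a fold enrichment of 34.9 for PTBP1 and 20.3 for RUNX1, with summits well upstream at -624 and -531.

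SNRPB, SNRPD1, SNRPE, SNRPF and SNRPG, which encode the remaining Sm proteins, had no peak. The closest to one was SNRPD1, with PTBP1 and RUNX1 peaks 11.1 and 11 kb from its TSS. The distances were 35.4 and 44.7 kb for SNRPG, 176 and 195 kb for SNRPF, 212 and 550 kb for SNRPE, and 368 and 90.7 kb for SNRPB.

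The 7 LSm genes were the most mixed group, with 1 gene carrying both targets, 1 PTBP1 only, 2 RUNX1 only and 3 neither. The products form the ring at the 3′ end of U6 RNA. LSM2 had a PTBP1 peak at chr6:31806700-31807054 with a fold enrichment of 19.8 and 33 fragments (22.7 to 46.3). Its RUNX1 peak, chr6:31806545-31807002, had a fold enrichment of 11.3 and 14 fragments (7.65 to 23.5), and both summits lay in the 5′ UTR in exon 1.

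LSM4 had PTBP1 only, at chr19:18322542-18323599, with a fold enrichment of 19.2 and 32 fragments (21.9 to 45.2). A second PTBP1 peak, in intron 4, had a fold enrichment of 11.05 with 18 fragments (10.7 to 28.4). The nearest RUNX1 peak was 30610 bases from its TSS.

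LSM3 and LSM5 had RUNX1 only. The LSM3 peak, chr3:14178361-14178879, was the strongest RUNX1 peak of the group, with a fold enrichment of 15.0 and 19 fragments (11.4 to 29.7), and the nearest PTBP1 peak was 53290 bases away. The LSM5 peak, chr7:32495437-32495758, had a fold enrichment of 9.02 with 11 fragments (5.49 to 19.7), and the nearest PTBP1 peak was 396012 bases away. Both lay beside a divergent neighbour, with summits 88 bases from the start of XPC and 136 bases from the start of AVL9, nearer than to the LSM gene. The canonical LSM5 transcript starts 4903 bases downstream of the 5′ end of the gene, and with that start LSM5 had no peak.

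LSM6, LSM7 and LSM8 had no peak. LSM7 was the closest of all members without a peak, with a PTBP1 peak 9.42 kb and a RUNX1 peak 38.4 kb away. LSM6 was the most remote from both lists together, at 2267 and 1819 kb, and LSM8 lay at 1321 and 104 kb.

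Among the 9 members placed in the tri-snRNP and U5 group, 3 had both targets, 1 had PTBP1 only and 5 had neither. Other genes of these snRNPs were counted among the other spliceosome genes. PRPF31 encodes a protein that bridges U4/U6 with U5. Its PTBP1 peak, chr19:54114655-54116067, had a fold enrichment of 32.6 with 55 fragments (41.4 to 71.6), and its RUNX1 peak, chr19:54115324-54115733, one of 15.8 with 20 fragments (12.2 to 30.9). The summits were 7 bases apart, at -14 and -21, which was the closest pair in the set. From the canonical start they lay at -358 and -365.

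PRPF3, a U4/U6 protein, was the only member of the 12 with both targets at which the RUNX1 fold enrichment was the larger, at 13.5 against 11.05 for PTBP1. The fragment counts behind them, 17 (9.90 to 27.2) and 18 (10.7 to 28.4), had overlapping intervals. PRPF6, a U5 protein that bridges to U4/U6, had 10.5 for PTBP1 and 8.27 for RUNX1, with summits 493 bases apart. PRPF8, the large U5 protein at the catalytic core, had PTBP1 only, at chr17:1684643-1685051, with a fold enrichment of 19.2 and 32 fragments (21.9 to 45.2), and the nearest RUNX1 peak was 31292 bases away.

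PRPF4 (a U4/U6 protein), PRPF18 (a factor of the second step of splicing), SNRNP200 (the helicase that unwinds U4 from U6), SNRNP27 and SNRNP40 had no peak. The nearest PTBP1 and RUNX1 peaks were 20.3 and 20.4 kb away for SNRNP27, 54 and 125 kb for PRPF4, 54.8 and 112 kb for SNRNP200, 141 kb in both lists for SNRNP40, and 284 and 131 kb for PRPF18. The SNRNP200 canonical start lies 15725 bases from the 5′ end of the gene, and it had no peak at that start either.

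Of the 3 members placed in the minor snRNP group, SNRNP25 and SNRNP35 had a peak. These had the lowest fold enrichments of the set for PTBP1 and for RUNX1. Other minor snRNP genes were counted among the other spliceosome genes. SNRNP25 had PTBP1 only, at chr16:53610-53898, with the lowest PTBP1 fold enrichment of the set, 5.91, from 40 fragments (28.6 to 54.5) on a background 8.24 times the usual value. Its TSS lies 53.8 kb from the end of chromosome 16, and the summit was nearer to the start of POLR3K (101 bases) than to that of SNRNP25. SNRNP35 had RUNX1 only, at chr12:123458536-123458859 in intron 1, with a fold enrichment of 6.77 from 8 fragments (3.45 to 15.8), the smallest fragment count that any peak of the RUNX1 list had, and the nearest PTBP1 peak was 14912 bases away. SNRNP48 had none, with nearest peaks 2814 and 277 kb away. PRPF19, the ubiquitin ligase at the centre of the Prp19 complex, had none either, at 64.3 and 254 kb.

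Across the 22 members without any peak, the nearest peak of either list lay 9.42 to 1819 kb from the TSS, with a median of 78.8 kb, and at 9 of the 22 it was more than 100 kb away. At 8 of the 22 the distances to the nearest PTBP1 and RUNX1 peaks differed by less than 1 kb. The same distances over all genes without a peak are not given here, so whether the members are unusual in this cannot be read.

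**Figure D3:**
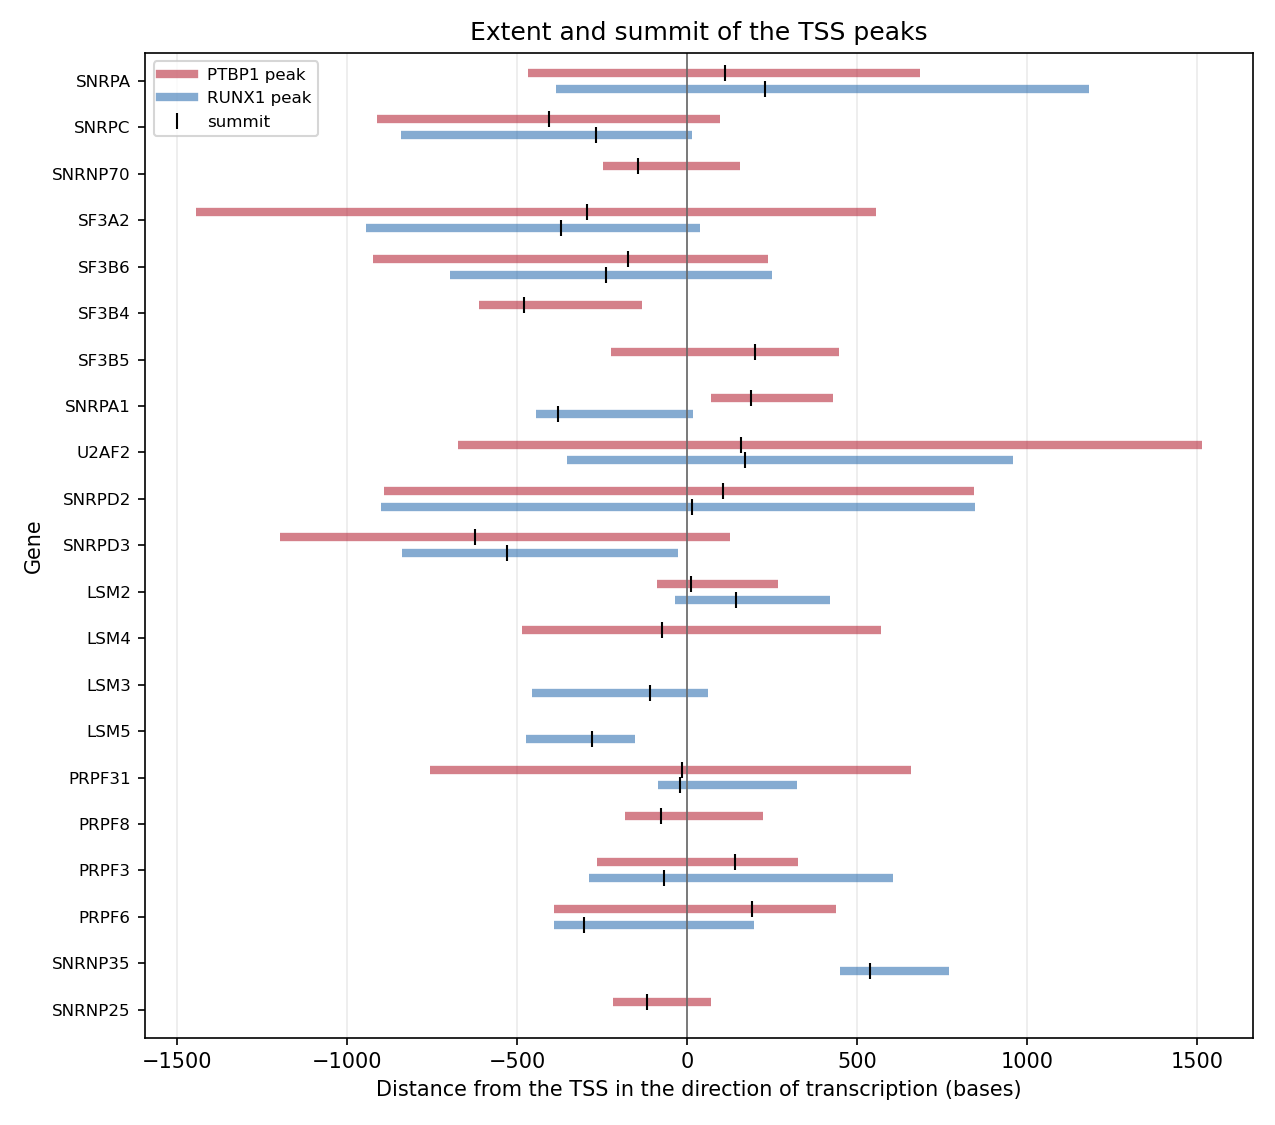
Extent of each PTBP1 and RUNX1 peak (bars) and its summit (black ticks) in bases from the TSS, in the direction of transcription (horizontal axis), for the 21 members with a peak at the TSS (vertical axis). The TSS lies within 16 of the 18 PTBP1 peaks and 12 of the 15 RUNX1 peaks, and the peaks of SNRPA1 lie side by side without overlap.

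Where both targets were present, their peaks mostly lay on the same DNA. They overlapped in 11 of the 12 members. Over all protein-coding genes 17.3% had both targets and 17.2% had both with overlapping peaks, so overlap is usual and not particular to the members. The summits were at most 200 bases apart in 9 of the 12, or 75.0%, against 79.6% of the 3469 protein-coding genes with both. The median summit distance was 106 bases in the members and 79 bases over all such genes.

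PTBP1 peaks had the larger fold enrichment in 11 of the 12 members, against 62.7% of all genes with both. The scales of the lists are not the same, since the usual background was 0.72 fragments for PTBP1 and 0.33 for RUNX1, so this ratio ranks genes and does not give relative occupancy. Members with both targets had a median PTBP1 fold enrichment of 31.1 (n = 12), and those with PTBP1 alone 11.6 (n = 6). Over all genes the same medians were 19.2 and 11.6. Over all TSS peaks, the median was 19.2 in members and 15.7 in all genes for PTBP1, and 15.0 and 15.8 for RUNX1.

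**Figure D4:**
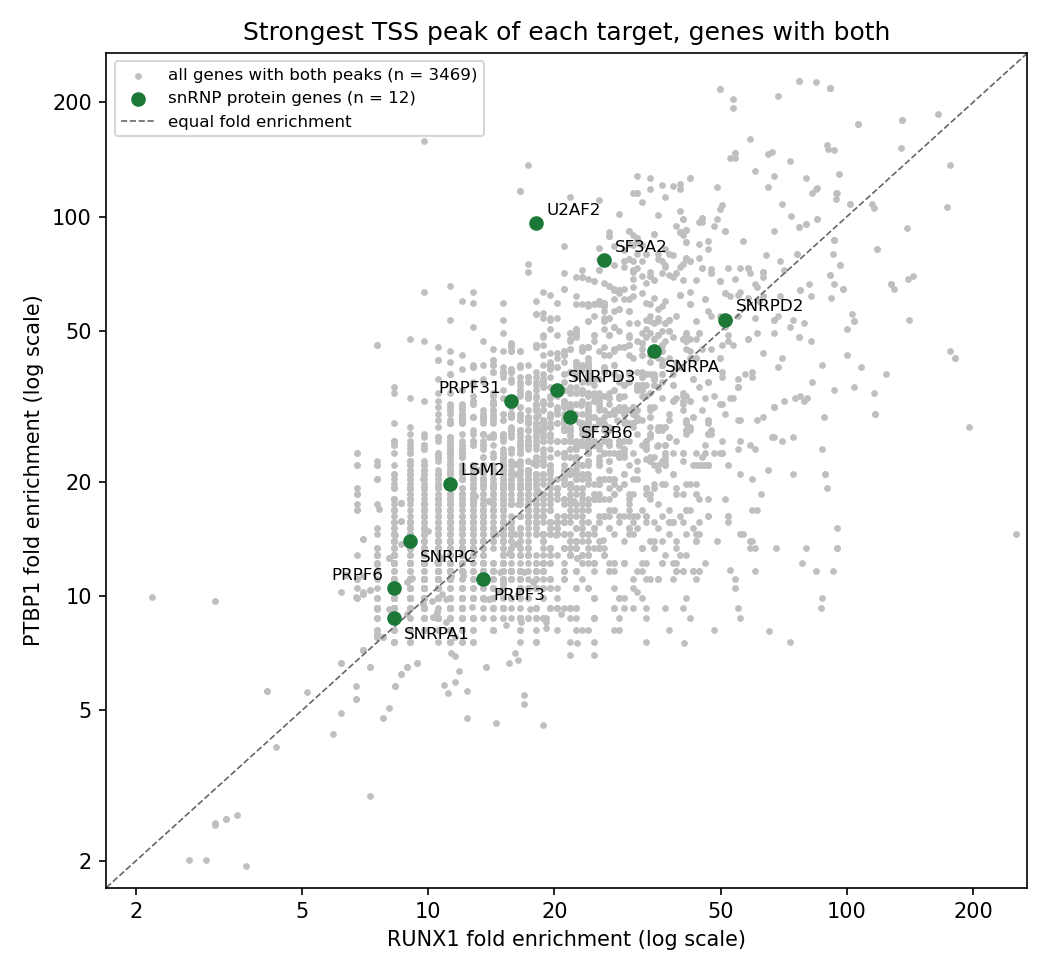
PTBP1 against RUNX1 fold enrichment (both log scales) of the strongest TSS peak of each target, for 3469 protein-coding genes with both (grey) and the 12 snRNP protein genes among them (green, named), with a dashed line at equal values. All members but PRPF3 lie above the line, U2AF2 farthest, with a ratio of 5.32.

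Many of the strongest members lie on chromosome 19, a grouping made after the values were seen. It holds 8 of the 44 members, and 7 of these (87.5%) had a PTBP1 peak at the TSS, against 37.3% of the protein-coding genes of that chromosome. For RUNX1 the count was 5 of 8 (62.5%), against 24.5%. On the other chromosomes, 11 of 36 members (30.6%) had PTBP1, against 25.5%, and 10 of 36 (27.8%) had RUNX1, against 21.0%. The 7 PTBP1 peaks on chromosome 19 (U2AF2, SF3A2, SNRPD2, SNRPA, PRPF31, LSM4 and SNRNP70) had a median fold enrichment of 44.2, against 19.8 for all genes of that chromosome with a PTBP1 TSS peak. The 11 on other chromosomes had a median of 11, against 15.1. LSM7 was the member of chromosome 19 without a peak.

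Many of the peaks also reach a neighbouring gene. Of the 18 PTBP1 TSS peaks, 8 came within 1 kb of another protein-coding TSS, and of the 15 RUNX1 TSS peaks, 9 did. The same share over all genes with a TSS peak is not given here, so these counts describe the members only. The pairs were SF3B6 with FAM228B, LSM3 with XPC, LSM5 with AVL9, SNRNP25 with POLR3K, SF3A2 with PLEKHJ1, SNRPA with ACTMAP, SNRPD2 with QPCTL, PRPF31 with TFPT, PRPF6 with SAMD10 and SNRPD3 with GUCD1 and an unnamed gene. The summit was nearer to the neighbour in 4 PTBP1 peaks (SF3B6, SNRPD2, SNRPD3 and SNRNP25) and 4 RUNX1 peaks (SF3B6, SNRPD3, LSM3 and LSM5). These comparisons use the 5′ end of each gene. The PRPF31 summits, at -358 and -365 from its canonical start, were nearer to the start of TFPT (261 and 268 bases). So was the SNRPD2 RUNX1 summit, at -602 from its canonical start, to that of QPCTL (152 bases). At these pairs the gene to which a peak belongs cannot be told apart from position. Those 10 members were then left out, and every gene with such a peak was left out of the background. Of the remaining 34 members, 10 (29.4%) had PTBP1 at the TSS, against 19%, and 6 (17.6%) had RUNX1, against 15.6%. Every gene left out had a TSS peak, while genes without one stayed, so a fall in these shares is built in.

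A peak that reaches a neighbour was also found at the other end of SF3A2. The gene held 2 further PTBP1 peaks, a weak one in intron 5 (fold enrichment 8.72, 14 fragments) and a broad one at its 3′ end, chr19:2247900-2251371 (14.0, 23 fragments), whose summit lay past the end of the gene, within reach of the start of AMH.

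The promoters of the members were examined over 300 bases, from 250 before to 50 after the TSS, on both strands, with the share of all protein-coding promoters that hold each motif. The ETS letters CCGGAA, the core bound by the ETS family of transcription factors, were found in 25 of 44 members (56.8%) and in 19.5% of all promoters. They stood in 10 of the 18 promoters with a PTBP1 peak (55.6%) and in 15 of the 26 without (57.7%), while over all genes the shares were 27.6% with and 16.6% without. For RUNX1 they stood in 11 of the 15 with a peak (73.3%) and 14 of the 29 without (48.3%), and over all genes in 27.2% and 17.4%. The YY1 letters ATGGCGG were in 8 members (18.2%), against 5.78%, and CCAAT in 22 (50%), against 35.9%. NRF1 letters (GCATGCGC) were in 3 members (6.82%), against 3.78%, and SP/KLF letters (GGGCGG) in 23 (52.3%), against 52.4%.

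The letters tied to the targets themselves were near the background. A RUNX motif, TGTGGT or TGCGGT, was in 10 member promoters (22.7%), against 19.8% of all, and in 3 of the 15 with a RUNX1 peak (20%), against 22.6% of all promoters with one. A run of at least 12 pyrimidines on either strand was in 17 (38.6%), against 45.9%. Within 50 bases of the RUNX1 summit at the TSS a RUNX motif was found in 1 of 15 members, SNRPA (6.67%), against 13.0% of 3527 such summits over all genes. At the PTBP1 summits it was found in 0 of 18 members, against 6.94% of 4320.

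**Figure D5:**
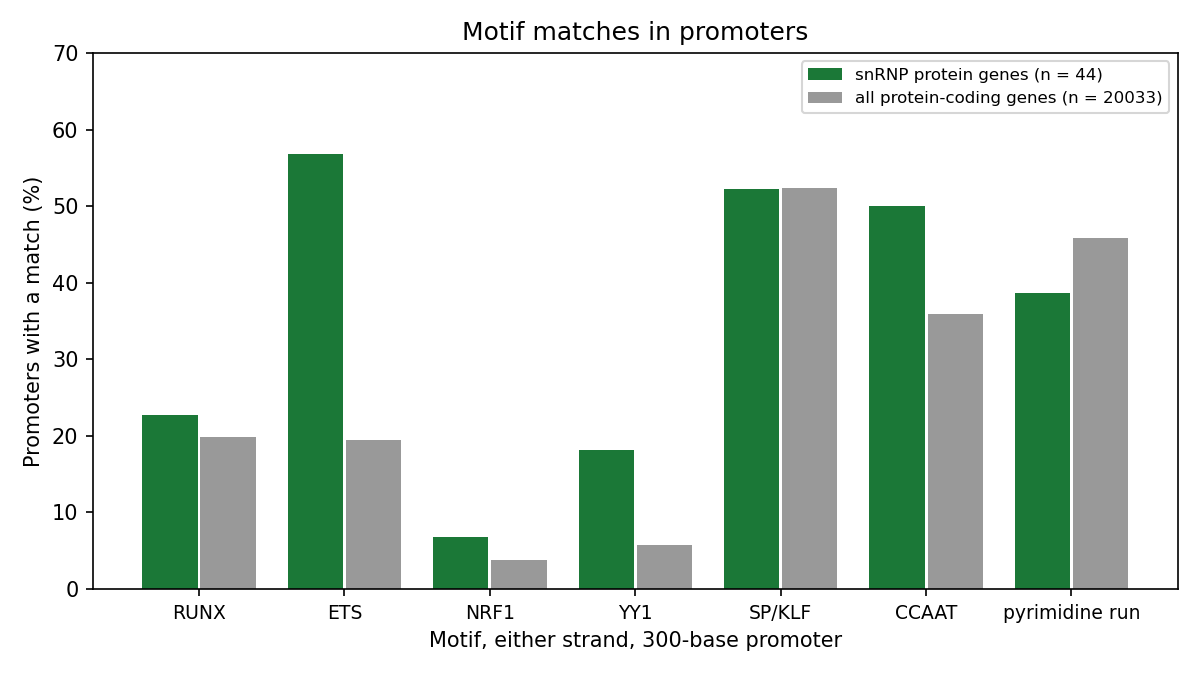
Share of 300-base promoters (%, vertical axis) with a match to each motif on either strand (horizontal axis), for the 44 snRNP protein genes and all 20033 protein-coding genes. ETS letters were in 56.8% of the members and 19.5% of all promoters, RUNX letters in 22.7% and 19.8%.

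For both targets, the promoters with a peak had a higher median GC content than those without. The median GC content of the 300 bases was 63.0% in the 18 members with a PTBP1 peak and 57.3% in the 26 without, and over all genes it was 65.3% with and 57.7% without. Split into 3 bins of near-equal gene number by promoter GC, 10.3%, 29.9% and 38.6% of all genes had a PTBP1 peak from the lowest to the highest bin, and among the members the counts were 1 of 8, 12 of 26 and 5 of 10. For RUNX1 the shares over all genes were 9.09%, 23.3% and 31.3%, while the member counts, 2 of 8, 10 of 26 and 3 of 10, were highest as a share in the middle bin. The median GC content was 62.3% in the 15 members with a RUNX1 peak and 58.7% in the 29 without, and over all genes 65.3% and 58.7%. The median ratio of observed to expected CpG was 0.927 in the members and 0.696 over all genes. The part of base composition in the member counts was not tested.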

How the data were processed

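Per the methods, adapters were clipped and the authors mapped paired-end reads to hg38 using Bowtie2, filtered them for high mapping quality and duplicates, and identified peaks by MACS3 (q-value threshold 1e-07). The deposited values used were the fold enrichment at the summit, a ratio of fragments plus 1 to background plus 1, and the −log10 p-value and −log10 q-value. The authors' fold and p were solved together for whole fragments and background (largest misfit 0.00134), a step tested on simulated data. Backgrounds over 1.5 times the usual value were called raised. Genes, TSSs and transcripts came from GENCODE version 44, and sequence from hg38. Copies of TSS windows were sought with minimap2 2.31 (at least 1000 bases, 95% identity). Weak sites with too few fragments are missing from such lists. Coordinates are 1-based. No test was run.

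Values were given in full for the strongest member per target in each role group, members with 1 target only and members with gene-body peaks, and distances for members without peaks. Sequence was shown for up to 150 bases before the TSS outside annotated UTRs, for the 2 strongest members per target and up to 3 with a RUNX motif. The members, lists and motifs were chosen with earlier results of these data known.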

Additional observations from a re-analysis of the deposited data

How the results depend on the processing

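Counts over members were recomputed with other TSS windows, other start sites, stricter q-values and subsets of peaks or members. Of the alternative counts, 58 stayed within 1.5 times the reported one and 10 did not. This rule compares counts and not shares. The largest moves came from leaving out the 10 members whose TSS peak reaches another coding TSS: 10 of 34 members then had PTBP1, 6 had RUNX1 and 5 had both, and 3 of 4 members of chromosome 19 had PTBP1. At a −log10 q-value of at least 20, 9 members had RUNX1 (20.5%, against 13.5% of genes) and 7 both (15.9%, against 10.5%). PTBP1 then stood at 12 members (27.3%, against 17.8%), down from 18, which is exactly at the limit of 1.5 times. Leaving out chromosome 19 was an alternative chosen after seeing the data, like those of its own count. Then 11 of 36 members had PTBP1 (30.6%, against 25.5% of genes) and 7 had both (19.4%, against 16.9%). The single RUNX1 gene-body count, at SF3B2, became 0 both at 2 kb from the TSS and at 1 kb from every transcript start. The shares of all genes were then 10.8% and 7.56%. Without peaks on a raised background SNRNP70 and SNRNP25 lost their PTBP1 peak, and 16 members kept one (36.4%, against 24.9% of genes). The shallowest RUNX1 peaks rest on 8 fragments and the shallowest PTBP1 peaks on 11, so weaker sites were not detectable at this depth. No paired analysis was possible because each target has 1 list with no replicate column.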
